A study of Mus musculus with 12 samples.

Results

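Epiblast-like cells (EpiLC) were compared with Sirt1 knockout, Otx2 knockdown embryonic stem cells (Sirt1KO Otx2KD ESC), a contrast of a primed with a naive culture in which chromosomes 8 and 11 stood at similar levels on both sides. The comparison used 6 of the 12 polyadenylated RNA libraries of the series, 3 titled as wild-type EpiLC and 3 titled as ESC with both the Sirt1 knockout and the Otx2 knockdown. Of 23136 loci with a gene name, 11974 had at least 1 FPKM (fragments scaled to transcript length and to library size) in at least 3 of these 6 libraries and were tested. All cells were mouse pluripotent cells of the strain C57 Bl/6J. The EpiLC were wild type. They had been taken out of naive medium onto fibronectin for 48 h, in the presence of Activin A at 20 ng/ml, Fgf2 at 12 ng/ml and 1% of the serum replacement KOSR. The Sirt1KO Otx2KD ESC were kept on gelatin in N2B27, a medium free of serum, to which LIF and inhibitors of GSK3 (CHIR99021, 3 uM) and of MEK (PD0325901, 1 uM) were added. Sirt1KO ESC and wild-type ESC, 3 libraries each in that same naive medium, are given beside some results. State, medium, Sirt1 genotype and Otx2 knockdown all differ between EpiLC and Sirt1KO Otx2KD ESC, so their parts in a difference cannot be told apart. The labels give neither the method of knockdown, the deleted part of Sirt1, nor the number of clones, and they do not say whether replicates were separate cultures, so p-values cover no more than the spread of the libraries given, and that spread may be technical.

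ESC held with LIF and both kinase inhibitors resemble the epiblast before implantation, where a network of transcription factors that includes Nanog, Klf4, Esrrb and Tfcp2l1 is active. On removal of the inhibitors, FGF signals through the ERK kinases, the naive network is shut down and the cells pass into a formative state that resembles the epiblast after implantation. Otx2 is a homeodomain factor that helps Oct4 (Pou5f1) engage new enhancers on this path, and Sirt1 is an NAD-dependent deacetylase.

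Libraries were alike within groups. The Pearson correlation of log2(FPKM + 1) across the loci tested was 0.977 to 0.984 within a group and 0.878 to 0.885 between EpiLC and Sirt1KO Otx2KD ESC, as a description of these libraries over loci that are not independent. Read totals are unknown, since only FPKM were deposited. Relative depth, taken from the steps by which low FPKM values differ, with EpiLC replicate 1 as 1, was 1, 1.24 and 0.825 in EpiLC and 1.22, 0.713 and 1.00 in Sirt1KO Otx2KD ESC, in order of replicate. Markers of the labelled states were high where the labels place them. Over 4 EpiLC markers (Fgf5, Otx2, Pou3f1 and Dnmt3b) the FPKM sum was 610 to 622 in EpiLC libraries and 32.6 to 35.2 in Sirt1KO Otx2KD libraries. Dnmt3b, with a mean of 478 FPKM, made up most of the EpiLC sum, and Otx2 is the gene knocked down in the ESC. Over 7 naive markers (Klf4, Tfcp2l1, Esrrb, Nanog, Prdm14, Zfp42 and Tbx3) the sum was 283 to 302 in EpiLC and 1288 to 1350 in Sirt1KO Otx2KD ESC. Nanog, whose locus carries a merged name, was the largest part in Sirt1KO Otx2KD ESC, with a mean of 602 FPKM. Markers of primitive endoderm and of trophoblast summed to no more than 5.39 and 4.15 FPKM over 6 genes each in any of these 6 libraries. A set of 8 fibroblast and feeder cell markers summed to 60.6 to 62.4 FPKM in EpiLC and 235 to 237 FPKM in Sirt1KO Otx2KD ESC, which is taken up with the matrix genes.

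Sirt1, on chromosome 10 at 62781752 to 62801783 (coordinates here and for other loci as the deposited files give them, in mm9), read 32.0, 34.5 and 33.0 FPKM in the EpiLC libraries, against 16.0, 15.6 and 15.04 FPKM in the Sirt1KO Otx2KD libraries. The groups did not overlap, and the log2 fold change was 1.05 ± 0.04 (SE; adjusted p = 3.38e-11). The locus was still read in the knockout at a level near that of Sirt1KO ESC, whose mean was 15.5 FPKM, while wild-type ESC averaged 25.8 FPKM. Otx2, on chromosome 14 at 49277858 to 49282547, read 96.3, 102 and 102 FPKM in the EpiLC libraries, against 6.33, 6.27 and 5.61 FPKM in the Sirt1KO Otx2KD libraries. EpiLC stood far above the knockdown cells, with a log2 fold change of 3.84 ± 0.12 (adjusted p = 1.98e-11). The knockdown cells sat near wild-type ESC (7.38 FPKM; log2 fold change -0.25, adjusted p = 0.101), and Sirt1KO ESC without the knockdown averaged 27.0 FPKM. Pou5f1, which encodes Oct4, read 625, 595 and 592 FPKM in the EpiLC libraries, against 613, 662 and 636 FPKM in the Sirt1KO Otx2KD libraries. Its libraries overlapped, and the log2 fold change of -0.08 ± 0.03 passed the threshold narrowly (adjusted p = 0.0448). That call was lost without replicate 2 or 3 of either group (adjusted p = 0.0855 to 0.211) and in most other settings, and quantile normalization turned its direction, with a value of 0.19 and an adjusted p of 0.00122.

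Across the transcriptome the contrast was broad. At an adjusted p under 0.05, 8985 of 11974 loci (75.0%) were called, 4403 (36.8%) higher and 4582 (38.3%) lower in EpiLC, and the median log2 fold change of all loci was -0.0097. These shares are the background against which each count of list members is read. A locus could pass the filter on low values through 1 group alone, and for such a locus the direction follows from the filter. By at least 1 log2 unit, 865 loci (7.22%) were higher and 1103 (9.21%) were lower. EpiLC libraries lay apart from Sirt1KO Otx2KD libraries, without overlap, at 9329 loci (77.9%), above them at 4574 (38.2%) and below them at 4755 (39.7%). For the same loci, EpiLC against wild-type ESC gave 9002 calls (75.2%), 4391 higher (36.7%) and 4611 lower (38.5%). Of these, 804 (6.71% of all loci) were higher and 1009 (8.43%) lower by at least 1 log2 unit. Sirt1KO Otx2KD ESC against wild-type ESC gave 6530 calls (54.5%), 3325 higher (27.8%) and 3205 lower (26.8%). Large changes were few there, with 183 loci (1.53%) higher and 195 (1.63%) lower by at least 1 log2 unit. These comparisons share libraries with EpiLC against Sirt1KO Otx2KD ESC, so their values stand side by side here and are not read as independent.

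**Figure D1:**
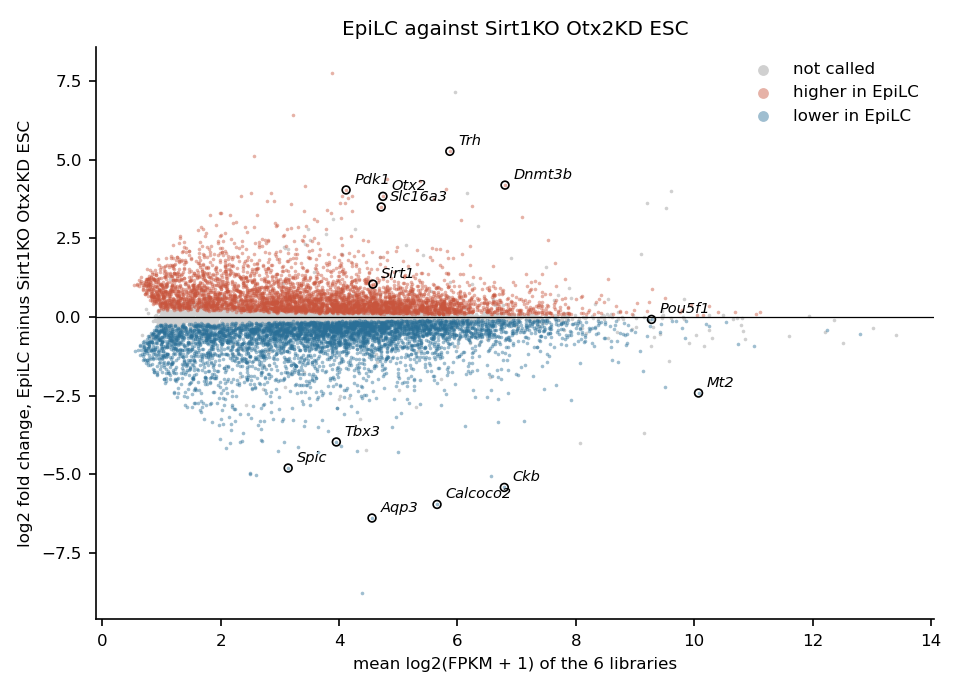
Log2 fold change (EpiLC minus Sirt1KO Otx2KD ESC, on the log2(FPKM + 1) scale) of 11974 loci against their mean log2(FPKM + 1) over the 6 libraries. Red and blue points were called higher and lower in EpiLC, grey points were not called, and circles mark named genes. Trh (5.27) stands far above 0, Aqp3 (-6.40), Calcoco2 (-5.96) and Ckb (-5.42) stand far below it, and Pou5f1 (-0.08) lies near it.

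Among the 15 genes with the largest rise in EpiLC, Trh, the precursor of thyrotropin-releasing hormone, led. Its level was 352, 375 and 363 FPKM in the EpiLC libraries, against 7.66, 9.84 and 7.86 FPKM in the Sirt1KO Otx2KD libraries, and the log2 fold change was 5.27 ± 0.07 (adjusted p = 6.89e-15). Here the naive groups were far apart from each other, since Sirt1KO ESC averaged 248 FPKM and wild-type ESC 37.2 FPKM. Trh in Sirt1KO Otx2KD ESC was lower than in wild-type ESC as well (log2 fold change -2.02, adjusted p = 3.31e-10). The set also held the de novo DNA methyltransferase genes and the feedback genes of ERK signalling described further on. Vrtn, which in pigs is linked to the number of vertebrae, averaged 21.3 FPKM in EpiLC and 0.464 FPKM in Sirt1KO Otx2KD ESC. It was under 1 FPKM in every Sirt1KO Otx2KD library and passed the filter through EpiLC alone, which fixed its direction. Pdzd4 averaged 69.4 FPKM in EpiLC and 3.87 FPKM in Sirt1KO Otx2KD ESC, and Pim2, a serine/threonine kinase, averaged 179 FPKM in EpiLC and 12.3 FPKM in Sirt1KO Otx2KD ESC. Fzd7, a Wnt receptor, averaged 61.7 FPKM in EpiLC and 3.39 FPKM in Sirt1KO Otx2KD ESC. The genes of this set were chosen for libraries that do not overlap, so that separation is no result. Aire averaged 25.6 FPKM in EpiLC and 1.09 FPKM in Sirt1KO Otx2KD ESC, but the files give it the same interval as Dnmt3l (chromosome 10, 77492775 to 77526360), and reads of overlapping genes cannot be told apart where strand is not stated.

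The 15 genes that fell most included membrane, energy and autophagy genes. Aqp3, a channel for water and glycerol, read 1.53, 1.66 and 1.498 FPKM in the EpiLC libraries, against 218, 211 and 216 FPKM in the Sirt1KO Otx2KD libraries. Its log2 fold change of -6.40 ± 0.05 (adjusted p = 5.27e-18) is that of the largest fall among genes named by the rule. Calcoco2, which encodes an autophagy receptor, read 6.32, 5.22 and 4.70 FPKM in the EpiLC libraries, against 399.9, 393 and 398 FPKM in the Sirt1KO Otx2KD libraries, with a log2 fold change of -5.96 ± 0.09 (adjusted p = 5.25e-14). Ckb, brain-type creatine kinase, read 16.5, 15.6 and 15.6 FPKM in the EpiLC libraries, against 708, 734 and 729.8 FPKM in the Sirt1KO Otx2KD libraries, with a log2 fold change of -5.42 ± 0.05 (adjusted p = 5.27e-18). The genes that fell most were likewise chosen for libraries that do not overlap, so the separation of these 3 is no result. In Sirt1KO ESC the mean levels were 29.4 FPKM for Aqp3, 59.2 FPKM for Calcoco2 and 323 FPKM for Ckb. Wild-type ESC had 121, 360.0 and 493 FPKM of the same genes, in that order.

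Several genes of this set were close to absent in EpiLC. Krtdap, Hesx1, Obox6, Spic, Ptx3 and Aspa were under 1 FPKM in every EpiLC library. They passed the filter through Sirt1KO Otx2KD ESC alone, which fixed their direction, so their levels are a description. Krtdap, a gene of keratinocyte differentiation, was listed at 0 in all 3 EpiLC libraries, against 32.1, 29.0 and 30.4 FPKM in Sirt1KO Otx2KD ESC. Hesx1, a homeobox gene of the anterior epiblast and pituitary, read 0, 0.159 and 0 FPKM in the EpiLC libraries, against 35.2, 33.8 and 31.6 FPKM in the Sirt1KO Otx2KD libraries. Obox6, a homeobox gene named for its expression in oocytes, averaged 0.267 FPKM in EpiLC and 19.03 FPKM in Sirt1KO Otx2KD ESC, and Spic, an Ets family factor, averaged 0.691 FPKM in EpiLC and 45.6 FPKM in Sirt1KO Otx2KD ESC. These genes were not all alike in other ESC. Obox6 was higher in Sirt1KO Otx2KD ESC than in wild-type ESC (log2 fold change 1.88, adjusted p = 1.54e-10), and so were Hesx1 (1.24, adjusted p = 2.88e-07) and Krtdap (1.30, adjusted p = 5.9e-07). Jam2, a junctional adhesion molecule, averaged 3.50 FPKM in EpiLC and 86.0 FPKM in Sirt1KO Otx2KD ESC, and its Sirt1KO Otx2KD and wild-type ESC levels did not differ past the threshold (log2 fold change 0.10, adjusted p = 0.209). S100a13, a calcium-binding protein gene, averaged 1.83 FPKM in EpiLC and 54.4 FPKM in Sirt1KO Otx2KD ESC, Ptx3, a pentraxin, 0.122 FPKM in EpiLC and 16.9 FPKM in Sirt1KO Otx2KD ESC, and Aspa, which hydrolyses N-acetylaspartate, 0.306 FPKM in EpiLC and 19.07 FPKM in Sirt1KO Otx2KD ESC.

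The promoters of the genes at both ends were searched for the core letters bound by OTX2, TAATCC, on either strand. Promoters were those of RefSeq on GRCm38.p6, 250 bases before to 50 bases after a start, and 22 of the 30 genes had at least 1. The letters lay in 1 of 26 promoters (3.85%) of 13 genes that were higher in EpiLC and in 2 of 9 promoters (22.2%) of 9 genes that were lower, against 2320 of 32851 RefSeq promoters (7.06%). The octamer ATGCAAAT, which Oct4 and other POU factors bind and which was also searched on either strand, lay in 1 of the 26 promoters (3.85%), that of Pim2, and in 0 of the 9, against 570 of 32851 (1.74%). Counts this small are a description only. The 3 promoters that hold TAATCC are shown because Otx2 itself is among them, beside genes that fell in the cells with high Otx2. They are written 5′ to 3′ on the strand of the gene, with the matched letters on either strand in capitals.
Otx2, chr14:48665060-48665359 (-): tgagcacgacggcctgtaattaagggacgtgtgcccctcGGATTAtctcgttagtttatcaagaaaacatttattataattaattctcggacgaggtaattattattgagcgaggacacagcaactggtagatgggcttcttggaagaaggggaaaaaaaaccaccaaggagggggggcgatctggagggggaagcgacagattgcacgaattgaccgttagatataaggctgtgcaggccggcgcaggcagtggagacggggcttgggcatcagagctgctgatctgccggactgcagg
Ptx3, chr3:66219637-66219936 (+): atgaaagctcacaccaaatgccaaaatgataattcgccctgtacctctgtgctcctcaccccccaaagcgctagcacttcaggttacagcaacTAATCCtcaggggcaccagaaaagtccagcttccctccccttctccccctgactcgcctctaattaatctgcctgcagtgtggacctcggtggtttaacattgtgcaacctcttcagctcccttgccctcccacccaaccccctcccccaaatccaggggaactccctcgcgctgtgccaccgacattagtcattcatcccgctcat
Aspa, chr11:73324588-73324887 (-): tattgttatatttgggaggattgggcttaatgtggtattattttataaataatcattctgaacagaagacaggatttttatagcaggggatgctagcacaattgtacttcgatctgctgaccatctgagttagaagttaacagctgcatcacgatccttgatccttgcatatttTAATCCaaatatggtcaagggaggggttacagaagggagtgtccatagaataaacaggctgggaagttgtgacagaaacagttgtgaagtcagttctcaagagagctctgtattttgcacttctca
A match is a description of these letters and not evidence of a bound site.

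All 25 genes of the naive pluripotency list passed the filter on low values, and all were called, 20 lower and 5 higher in EpiLC, where 38.3% of all loci were lower and 36.8% higher. Their median log2 fold change was -1.19, against -0.0097 over all loci. Tbx3, a T-box factor of the naive network, read 2.57, 3.04 and 3.13 FPKM in the EpiLC libraries, against 62.1, 60.8 and 58.5 FPKM in the Sirt1KO Otx2KD libraries, with a log2 fold change of -3.98 ± 0.06 (adjusted p = 5.81e-15). Prdm14, which represses FGF signalling and DNA methylation genes, read 1.28, 1.02 and 1.09 FPKM in the EpiLC libraries, against 33.6, 30.9 and 32.3 FPKM in the Sirt1KO Otx2KD libraries (-3.96 ± 0.07, adjusted p = 1.28e-14). Tfcp2l1, a target of LIF signalling, read 7.59, 7.97 and 8.18 FPKM in the EpiLC libraries, against 103, 94.2 and 99.1 FPKM in the Sirt1KO Otx2KD libraries (-3.49 ± 0.06, adjusted p = 2.23e-14). Tbx3 and Prdm14 are also among the genes chosen for libraries that do not overlap, so their separation is no result.

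Nanog, whose locus carries a merged name with a pseudogene (Nanog,Nanogpd) and is uncertain for that reason, read 90.5, 96.5 and 104 FPKM in the EpiLC libraries, against 617, 579 and 610.3 FPKM in the Sirt1KO Otx2KD libraries. Its log2 fold change was -2.62 ± 0.06 (adjusted p = 1.07e-12). Dppa3, a maternal factor that guards against loss of imprints, averaged 36.3 FPKM in EpiLC and 216 FPKM in Sirt1KO Otx2KD ESC, and Nr5a2, an orphan nuclear receptor, 8.34 FPKM in EpiLC and 40.9 FPKM in Sirt1KO Otx2KD ESC. The Kruppel-like factors fell by unequal amounts, with log2 fold changes of -1.97 for Klf4, -1.82 for Klf2 and -1.02 for Klf5. Other members that fell were Esrrb (-1.37), an orphan receptor, Zfp42 (-1.56), known as Rex1, and Tcl1 (-2.06), an Akt coactivator. Zfp57 (-1.19), a protector of imprints, Tet2 (-1.29), a 5-methylcytosine dioxygenase, Dppa5a (-1.08) and Fgf4 (-0.96), the ligand that ESC make themselves, followed. Nr0b1 (-0.94), Sall4 (-0.78), Pecam1 (-0.67) and Gdf3 (-0.50) fell by less than 1 log2 unit. The smallest fall still left the groups apart, since Gdf3 read 73.3, 68.9 and 63.5 FPKM in the EpiLC libraries, against 94.8, 98.6 and 98.9 FPKM in the Sirt1KO Otx2KD libraries.

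The 5 naive list genes that went the other way were Gbx2, Mael, Dppa4, Tdgf1 and Dppa2. Gbx2, a homeobox gene downstream of LIF, read 8.22, 8.86 and 9.15 FPKM in the EpiLC libraries, against 1.88, 2.81 and 2.53 FPKM in the Sirt1KO Otx2KD libraries (log2 fold change 1.52 ± 0.11, adjusted p = 1.13e-08). Dppa4 and Dppa2 encode partner proteins that bind chromatin, and averaged 44.3 FPKM in EpiLC and 21.5 FPKM in Sirt1KO Otx2KD ESC for Dppa4 and 24.6 FPKM in EpiLC and 19.05 FPKM in Sirt1KO Otx2KD ESC for Dppa2. Tdgf1, the Nodal co-receptor Cripto, averaged 201 FPKM in EpiLC and 111 FPKM in Sirt1KO Otx2KD ESC. Part of the difference in Tdgf1 lay between the ESC groups: wild-type ESC averaged 185 FPKM, and Sirt1KO Otx2KD ESC were lower than these (log2 fold change -0.74, adjusted p = 2.72e-08). As a list, the naive genes gave a median of -1.44 in EpiLC against wild-type ESC (5 higher, 20 lower, beside 36.7% and 38.5% of all loci). In Sirt1KO Otx2KD ESC against wild-type ESC the median was 0.01, with 8 members higher and 5 lower, beside 27.8% and 26.8% of all loci.

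Of 29 primed and formative genes, 28 passed the filter, which a gene high in EpiLC alone could do, so their count is a description. Called higher were 23, and 1 was lower, beside 36.8% and 38.3% of all loci. Nodal, the secreted ligand of the Activin receptors, was the member that fell, reading 32.5, 32.8 and 34.6 FPKM in the EpiLC libraries, against 53.5, 58.4 and 55.3 FPKM in the Sirt1KO Otx2KD libraries (log2 fold change -0.73 ± 0.06, adjusted p = 6.65e-08). Igfbp2, Tead2, Cldn6 and Krt8 were not called. The median log2 fold change of the list was 2.33, against 2.08 in EpiLC against wild-type ESC and 0.01 in Sirt1KO Otx2KD ESC against wild-type ESC.

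**Figure D2:**
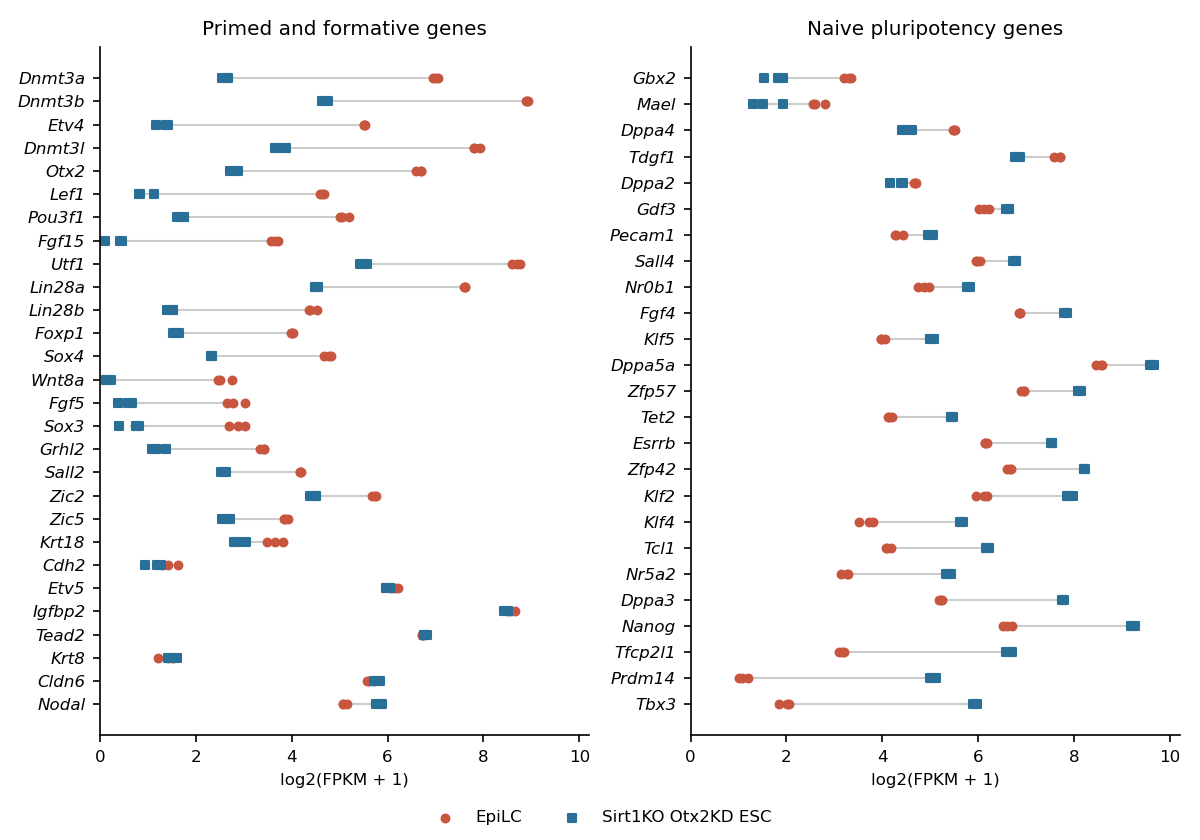
Log2(FPKM + 1) of the primed and formative genes (left) and the naive pluripotency genes (right) in each of the 3 EpiLC libraries (red circles) and the 3 Sirt1KO Otx2KD ESC libraries (blue squares), with grey lines joining the means and genes ordered by fold change. From Dnmt3a at the top left to Krt18 the EpiLC points lie clear to the right, and in the right panel all but the 5 uppermost genes lie to the left in EpiLC.

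The enzymes that set new DNA methylation had some of the largest rises. Dnmt3a, a de novo methyltransferase, read 132, 123 and 127 FPKM in the EpiLC libraries, against 4.83, 5.26 and 5.36 FPKM in the Sirt1KO Otx2KD libraries (log2 fold change 4.38 ± 0.13, adjusted p = 2.25e-11). Dnmt3b, the other catalytic member, read 483, 478 and 472 FPKM in the EpiLC libraries, against 23.9, 26.0 and 25.3 FPKM in the Sirt1KO Otx2KD libraries (4.20 ± 0.13, adjusted p = 3.9e-10). Dnmt3l, their cofactor with no catalytic activity of its own, read 243, 221 and 224 FPKM in the EpiLC libraries, against 12.6, 11.6 and 13.8 FPKM in the Sirt1KO Otx2KD libraries (4.08 ± 0.11, adjusted p = 7.47e-12). All 3 belong to the set chosen for libraries that do not overlap, so their separation is no result. Dnmt3l was also higher in Sirt1KO Otx2KD than in wild-type ESC (log2 fold change 1.03, adjusted p = 7.15e-06), and Dnmt3a was not called there (0.28, adjusted p = 0.0917). Over the 17 DNA methylation and demethylation genes tested, 9 were higher and 7 lower, beside 36.8% and 38.3% of all loci. The maintenance methyltransferase Dnmt1 had a log2 fold change of -0.08 ± 0.03 (adjusted p = 0.0372), and its recruiter Uhrf1 had -0.10 ± 0.04 (adjusted p = 0.028).

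Transcription factors of the primed list rose too. Pou3f1, known as Oct6, read 35.4, 32.4 and 31.2 FPKM in the EpiLC libraries, against 2.06, 2.39 and 2.38 FPKM in the Sirt1KO Otx2KD libraries (log2 fold change 3.38 ± 0.11, adjusted p = 2.54e-12). Utf1, a chromatin-bound factor of pluripotent cells, averaged 412 FPKM in EpiLC and 44.4 FPKM in Sirt1KO Otx2KD ESC. The let-7 inhibitors Lin28a and Lin28b averaged 195 FPKM in EpiLC and 21.8 FPKM in Sirt1KO Otx2KD ESC for Lin28a, and 20.5 FPKM in EpiLC and 1.81 FPKM in Sirt1KO Otx2KD ESC for Lin28b. Sox4 rose by 2.42, Sox3 by 2.22, Foxp1 by 2.42, Grhl2, an activator of epithelial enhancers, by 2.19 and Sall2 by 1.60 log2 units.

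Zic2 and Zic5, zinc finger factors next to each other in the genome, show how the choice of ESC matters. Zic2 read 53, 52.1 and 49.99 FPKM in the EpiLC libraries, against 19.8, 21.6 and 21.7 FPKM in the Sirt1KO Otx2KD libraries, while wild-type ESC averaged 42.9 FPKM. Its rise was 1.26 log2 units over Sirt1KO Otx2KD ESC and 0.27 over wild-type ESC, and the knockdown cells were lower than wild-type ESC (-0.99, adjusted p = 9.61e-08). Zic5 rose by 1.23 over Sirt1KO Otx2KD ESC and by 0.52 over wild-type ESC.

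Fgf5, Fgf15 and Wnt8a, secreted signals of the list, were low in Sirt1KO Otx2KD ESC. Fgf5, the classical marker of the epiblast after implantation, read 7.195, 5.87 and 5.28 FPKM in the EpiLC libraries, against 0.294, 0.505 and 0.599 FPKM in the Sirt1KO Otx2KD libraries (log2 fold change 2.28 ± 0.16, adjusted p = 1.44e-08). Fgf15 averaged 11.5 FPKM in EpiLC and 0.266 FPKM in Sirt1KO Otx2KD ESC and Wnt8a 4.96 FPKM in EpiLC and 0.136 FPKM in Sirt1KO Otx2KD ESC. The smallest rises were those of Etv5 (0.13) and Cdh2 (0.31), N-cadherin, which lost their call on leaving out some libraries. For Etv5 the adjusted p was 0.0678 without EpiLC replicate 1 and 0.0538 without Sirt1KO Otx2KD replicate 1. For Cdh2 it was 0.114 without EpiLC replicate 1 and 0.113 without Sirt1KO Otx2KD replicate 2. Krt18, a simple epithelial keratin, rose by 0.74, whereas its partner Krt8 averaged 1.63 FPKM in EpiLC and 1.87 FPKM in Sirt1KO Otx2KD ESC and was not called (adjusted p = 0.243).

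Of 17 ERK feedback and ETS genes tested, 15 rose and 2, Fos and Ier3, fell, with a median of 1.85, where 36.8% of all loci were higher and 38.3% lower. The medium of the ESC held a MEK inhibitor, which acts just above ERK, and that of the EpiLC held Fgf2. The part of the media in these differences was not tested. Spry4, a feedback inhibitor of receptor tyrosine kinases, read 18.0, 19.4 and 17.6 FPKM in the EpiLC libraries, against 0.343, 0.382 and 0.314 FPKM in the Sirt1KO Otx2KD libraries (log2 fold change 3.84 ± 0.10, adjusted p = 4.92e-13). Spry4 passed the filter through EpiLC alone, which fixed its direction, so the count of 15 that includes it is a description. Dusp6, a phosphatase that removes the activating phosphates of ERK, read 66.0, 65.0 and 65.4 FPKM in the EpiLC libraries, against 3.57, 4.27 and 3.57 FPKM in the Sirt1KO Otx2KD libraries (3.79 ± 0.14, adjusted p = 2.55e-10). Etv4, an ETS factor induced by FGF, read 44.4, 44.9 and 44.3 FPKM in the EpiLC libraries, against 1.26, 1.69 and 1.61 FPKM in the Sirt1KO Otx2KD libraries (4.18 ± 0.14, adjusted p = 8.43e-12). These 3 were low in every Sirt1KO Otx2KD library. Sirt1KO ESC, in the same naive medium, averaged 2.38 FPKM of Spry4, 20.8 FPKM of Dusp6 and 9.90 FPKM of Etv4. Wild-type ESC averaged 0.0379, 4.96 and 0.201 FPKM of the same genes, in that order. Spred1, which inhibits Ras activation, averaged 25.7 FPKM in EpiLC and 2.64 FPKM in Sirt1KO Otx2KD ESC.

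Ccnd1, cyclin D1, was higher in EpiLC too and also differed among the ESC groups. It read 44.3, 44.5 and 43.1 FPKM in the EpiLC libraries, against 6.26, 6.42 and 7.04 FPKM in the Sirt1KO Otx2KD libraries (log2 fold change 2.57 ± 0.05, adjusted p = 2.37e-14). Sirt1KO ESC averaged 42.2 and wild-type ESC 23.6 FPKM, so Sirt1KO Otx2KD ESC were the lowest of the 4 groups. Their difference from wild-type ESC was -1.70 log2 units (adjusted p = 2.36e-11). The list median was 0.87 in EpiLC against wild-type ESC and -0.26 in Sirt1KO Otx2KD ESC against wild-type ESC.

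In the LIF-STAT3 list 12 of 15 genes were lower, 2 were higher (Lifr and Ptpn11) and Jak1 was not called, beside 38.3% of all loci lower and 36.8% higher. The list median was -1.04. LIF was named only for the ESC medium, and its part in these differences was not tested. Stat3, the transcription factor of the pathway, read 6.03, 6.96 and 5.93 FPKM in the EpiLC libraries, against 23.3, 21.8 and 23.0 FPKM in the Sirt1KO Otx2KD libraries (log2 fold change -1.70 ± 0.06, adjusted p = 7.7e-12). Bcl3, a nuclear IkB protein, read 1.80, 1.32 and 1.70 FPKM in the EpiLC libraries, against 24.2, 24.7 and 25.8 FPKM in the Sirt1KO Otx2KD libraries (-3.32 ± 0.08, adjusted p = 2.56e-13), and the feedback inhibitor Socs3 averaged 7.37 FPKM in EpiLC and 25.1 FPKM in Sirt1KO Otx2KD ESC. All 3 EpiLC libraries were below all 3 Sirt1KO Otx2KD libraries for these genes. Lifr, the receptor itself, was higher in EpiLC by 0.57 log2 units.

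Of 17 FGF ligands and receptors 12 passed the filter, of which 4 rose (Fgf15, Fgf5, Fgfbp3 and Fgf17) and 7 fell. Of all loci, 36.8% were higher and 38.3% lower. Fgf5 and Fgf15, under 1 FPKM in Sirt1KO Otx2KD ESC, passed the filter through EpiLC alone, which fixed their direction. Fgfr2 averaged 2.16 FPKM in EpiLC and 7.25 FPKM in Sirt1KO Otx2KD ESC. Its mean was 1.25 FPKM in Sirt1KO ESC and 7.65 FPKM in wild-type ESC.

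The Wnt list split, with 5 higher and 5 lower of the 12 genes tested among 19, beside 36.8% and 38.3% of all loci. Lef1, an HMG box factor that works with beta-catenin, read 24.6, 23.1 and 23.9 FPKM in the EpiLC libraries, against 0.764, 1.19 and 0.787 FPKM in the Sirt1KO Otx2KD libraries (log2 fold change 3.71 ± 0.11, adjusted p = 9.55e-13). Tcf7l1, the family member that represses the naive network, read 13.8, 15.2 and 12.9 FPKM in the EpiLC libraries, against 50.2, 52.8 and 47.7 FPKM in the Sirt1KO Otx2KD libraries (-1.78 ± 0.08, adjusted p = 5.03e-11). So the activator was higher and the repressor lower in EpiLC. Against wild-type ESC, where Lef1 averaged 11.3 and Tcf7l1 18.5 FPKM, the EpiLC differences were 1.02 and -0.38. Sirt1KO Otx2KD ESC stood apart from wild-type ESC in both, by -2.69 (adjusted p = 3.2e-10) and 1.40 (adjusted p = 4.21e-09). Notum, a Wnt-inactivating enzyme, averaged 4.76 FPKM in EpiLC and 28.2 FPKM in Sirt1KO Otx2KD ESC, and the receptor gene Fzd10 1.55 FPKM in EpiLC and 16.4 FPKM in Sirt1KO Otx2KD ESC.

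In the Nodal and Activin pathway 9 of 19 genes were higher and 8 lower, a balance that turned under some settings. Of all loci, 36.8% were higher and 38.3% lower. Lefty2, a secreted inhibitor of Nodal, read 9.23, 7.84 and 7.69 FPKM in the EpiLC libraries, against 50.2, 52.3 and 50.1 FPKM in the Sirt1KO Otx2KD libraries (log2 fold change -2.49 ± 0.07, adjusted p = 5.53e-13), and Pcsk6, a protease that activates Nodal, read 4.62, 4.79 and 4.95 FPKM in the EpiLC libraries, against 50.3, 47.6 and 47.99 FPKM in the Sirt1KO Otx2KD libraries (-3.10 ± 0.06, adjusted p = 1.47e-14). Skil, a Smad-binding repressor, went up, with averages of 46.8 FPKM in EpiLC and 14.8 FPKM in Sirt1KO Otx2KD ESC. Of 13 BMP genes tested among 18, 3 rose (Bmp4, Smad5 and Bmpr1a) and 7 fell, among them Id2 (-2.17), Id4 (-1.81) and Id3 (-0.73), inhibitors of bHLH factors, and Bambi (-0.89), a decoy receptor.

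Glycolysis genes were mostly higher in EpiLC than in Sirt1KO Otx2KD ESC, and split when EpiLC was set against wild-type ESC. Of 23 genes, all of which passed the filter, 17 were higher in EpiLC, 3 were lower (Hk1, Slc2a3 and Ldhb) and 3 were not called (Gapdh, Gpi1 and Pfkfb3), where 36.8% of all loci were higher and 38.3% lower. Their median was 0.59. In EpiLC against wild-type ESC, 11 were higher and 8 lower, with a median of 0.10, beside 36.7% and 38.5% of all loci. In Sirt1KO Otx2KD ESC against wild-type ESC, 1 was higher and 20 were lower, with a median of -0.49 where 26.8% of all loci were called lower.

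Pdk1, a kinase that blocks entry of pyruvate into the mitochondrial cycle, read 71.7, 67.2 and 69.7 FPKM in the EpiLC libraries, against 2.61, 4.07 and 3.27 FPKM in the Sirt1KO Otx2KD libraries (log2 fold change 4.04 ± 0.12, adjusted p = 5.29e-12). Sirt1KO ESC averaged 17.9 and wild-type ESC 5.68 FPKM. Slc16a3, the lactate exporter MCT4, read 89.2, 92.2 and 80.5 FPKM in the EpiLC libraries, against 6.73, 7.08 and 6.55 FPKM in the Sirt1KO Otx2KD libraries (3.50 ± 0.07, adjusted p = 5.25e-14). For Slc16a3 wild-type ESC, at 43.4 FPKM, stood between the groups, and EpiLC exceeded them by 0.99 log2 units. Sirt1KO Otx2KD ESC were lower than wild-type ESC by a larger step (-2.51, adjusted p = 2.36e-11). Ldha, lactate dehydrogenase A, read 579, 556 and 550.3 FPKM in the EpiLC libraries, against 244, 249 and 239 FPKM in the Sirt1KO Otx2KD libraries (1.20 ± 0.03, adjusted p = 6.23e-13), and Pkm2, pyruvate kinase, read 863, 831 and 848 FPKM in the EpiLC libraries, against 454, 458 and 449.7 FPKM in the Sirt1KO Otx2KD libraries (0.90 ± 0.02, adjusted p = 4.42e-13). Further along the same path, the liver-type phosphofructokinase Pfkl differed by 2.20, enolase Eno1 by 1.36, the glucose transporter Slc2a1 by 1.35 and phosphoglycerate kinase Pgk1 by 1.07, values outside the naming rule that were chosen after they were seen. Bnip3, a mitophagy receptor in the Bcl2 family list and like several of these a known target of hypoxia-inducible factor, averaged 27.2 FPKM in EpiLC and 4.55 FPKM in Sirt1KO Otx2KD ESC, with 14.3 FPKM in wild-type ESC.

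The promoters of the glycolysis genes were searched on either strand for ACGTG, the core of the hypoxia response element, which also lies within an E-box. An E-box of that kind, a palindrome, holds a match on each strand. The letters lay in 17 of 35 RefSeq promoters of the list (48.6%), against 6447 of 32851 promoters (19.6%). Some genes have several promoters, some of which overlap and share a match. Base composition was not matched, so these shares are a description only. By gene, they lay in a promoter of 11 of 17 genes that were higher in EpiLC, 1 of 2 that were lower and 2 of 3 not called. Shown are the promoter of Ldha with the most matches (5), that of Slc16a3 (2 matches) and, of the RefSeq promoters of Pdk1, the one with the lower coordinate, with 0 matches although Pdk1 had the largest rise of the list. They run 5′ to 3′ on the strand of the gene on GRCm38.p6, with matches in capitals.
Ldha, chr7:46845554-46845853 (+): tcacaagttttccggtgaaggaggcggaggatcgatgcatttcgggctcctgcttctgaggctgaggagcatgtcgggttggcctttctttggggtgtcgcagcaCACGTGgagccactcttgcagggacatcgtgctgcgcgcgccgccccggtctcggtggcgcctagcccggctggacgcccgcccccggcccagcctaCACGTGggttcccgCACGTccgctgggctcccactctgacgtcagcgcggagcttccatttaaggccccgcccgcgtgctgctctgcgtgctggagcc
Slc16a3, chr11:120948817-120949116 (+): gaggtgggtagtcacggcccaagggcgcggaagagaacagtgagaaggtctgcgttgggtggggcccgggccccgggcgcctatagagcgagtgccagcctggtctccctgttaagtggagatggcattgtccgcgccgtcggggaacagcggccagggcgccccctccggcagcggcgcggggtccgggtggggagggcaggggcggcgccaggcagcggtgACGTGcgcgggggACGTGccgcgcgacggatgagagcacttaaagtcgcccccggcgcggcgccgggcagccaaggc
Pdk1, chr2:71872974-71873273 (+): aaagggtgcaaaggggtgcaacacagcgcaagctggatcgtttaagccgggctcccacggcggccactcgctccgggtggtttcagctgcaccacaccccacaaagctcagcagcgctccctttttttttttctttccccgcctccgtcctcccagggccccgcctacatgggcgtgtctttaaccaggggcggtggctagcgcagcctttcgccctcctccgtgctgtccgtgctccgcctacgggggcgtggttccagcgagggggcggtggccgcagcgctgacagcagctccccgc
No match says only that these letters are not in this window.

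Differences in the oxidative phosphorylation list were small. Of 44 subunit genes tested 29 fell, 3 rose (Sdhc, Ndufs3 and Ndufs1) and 12 were not called, where 38.3% of all loci fell and 36.8% rose. The list median was -0.24. Cox5a, a subunit of cytochrome c oxidase, read 248, 249 and 268 FPKM in the EpiLC libraries, against 699.9, 699 and 682 FPKM in the Sirt1KO Otx2KD libraries (log2 fold change -1.44 ± 0.05, adjusted p = 2.33e-12), the largest of those named. The log2 fold change was -0.74 for Sdhb, of complex II, -0.84 for Atp5g3, of ATP synthase, and -0.49 for Cox4i1. In EpiLC against wild-type ESC 37 members were lower and 1 was higher, with a median of -0.36, and Sirt1KO Otx2KD ESC had 21 lower and 5 higher than wild-type ESC. Of all loci, 38.5% were lower and 36.7% higher in the former comparison, and 26.8% lower and 27.8% higher in the latter. Genes of the mitochondrial ribosome showed no common direction, with 13 of 38 higher and 15 lower.

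Of 23 cholesterol synthesis genes tested 18 were higher, 1 was lower (Ebp, log2 fold change -0.21) and 4 were not called, with a median of 0.68, where 36.8% of all loci were higher and 38.3% lower. Lss, which closes the sterol ring, read 88.5, 87.9 and 88.4 FPKM in the EpiLC libraries, against 24.6, 23.4 and 25.4 FPKM in the Sirt1KO Otx2KD libraries (log2 fold change 1.81 ± 0.05, adjusted p = 8.5e-13). Mvd, of the mevalonate branch, read 108, 100.4 and 108 FPKM in the EpiLC libraries, against 39.2, 40.1 and 41.9 FPKM in the Sirt1KO Otx2KD libraries (1.36 ± 0.06, adjusted p = 6.47e-11). Sqle, squalene epoxidase, averaged 103 FPKM in EpiLC and 50.3 FPKM in Sirt1KO Otx2KD ESC, and Sc4mol, a sterol demethylating enzyme, 242 FPKM in EpiLC and 114 FPKM in Sirt1KO Otx2KD ESC. EpiLC against wild-type ESC gave 18 higher, 2 lower and a median of 0.59, and Sirt1KO Otx2KD ESC against wild-type ESC gave 4 higher, 8 lower and a median of -0.03. Of all loci, 36.7% were higher and 38.5% lower in the former comparison, and 27.8% higher and 26.8% lower in the latter. Sirt1KO ESC averaged 51.4 FPKM of Lss and 86.9 FPKM of Mvd, both above wild-type ESC (24.3 and 32.3 FPKM). The letters CACCCCAC, from the sterol regulatory element that SREBP factors bind, lay on either strand in 1 of 19 RefSeq promoters of the list (5.26%), against 942 of 32851 promoters (2.87%).

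Of 15 fatty acid synthesis genes 9 rose and 2 fell (Me1 and Srebf1), beside 36.8% of all loci higher and 38.3% lower. Acsl4, which activates long polyunsaturated fatty acids, averaged 48.6 FPKM in EpiLC and 8.09 FPKM in Sirt1KO Otx2KD ESC (log2 fold change 2.45 ± 0.07, adjusted p = 1.08e-12), and the desaturases Fads1 and Fads2 rose by 1.12 and 1.05.

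**Figure D3:**
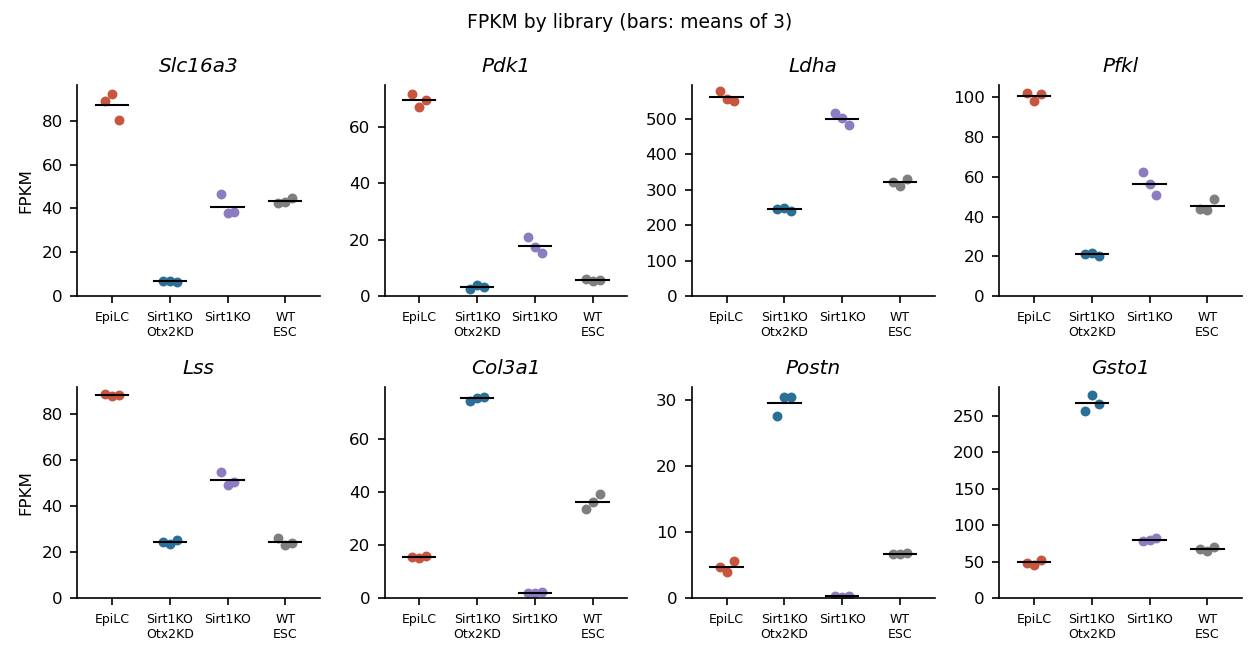
FPKM of 8 genes in the 3 libraries (points) of EpiLC, Sirt1KO Otx2KD ESC, Sirt1KO ESC and wild-type ESC, with bars at the means; axes start at 0. Slc16a3, Ldha and Pfkl are lowest in Sirt1KO Otx2KD ESC, Lss is about level between Sirt1KO Otx2KD ESC (24.4 FPKM) and wild-type ESC (24.3 FPKM), and Col3a1, Postn and Gsto1 are highest in Sirt1KO Otx2KD ESC.

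Serine synthesis and amino acid uptake genes of the integrated stress response list were among those higher in EpiLC. In all, 12 of 21 were higher and 7 lower, where 36.8% of all loci were higher and 38.3% lower. Slc7a3, a cationic amino acid transporter, averaged 126 FPKM in EpiLC and 52.9 FPKM in Sirt1KO Otx2KD ESC, and Slc3a2, the heavy chain of several transporters, 154 FPKM in EpiLC and 93.7 FPKM in Sirt1KO Otx2KD ESC. Psat1, of serine synthesis, averaged 337 FPKM in EpiLC and 216 FPKM in Sirt1KO Otx2KD ESC, and Mthfd2, a mitochondrial folate enzyme, 145 FPKM in EpiLC and 75.2 FPKM in Sirt1KO Otx2KD ESC. Members that fell included Asns (-0.57) and Ddit3 (-0.51). Of 20 aminoacyl-tRNA synthetase genes 13 were higher and 3 lower (Qars, Gars and Dars), with differences of no more than 0.62 log2 units, that of Kars. The 26 methionine and one-carbon genes split into 11 higher and 12 lower. Tdh, threonine dehydrogenase, on which mouse ESC depend, averaged 142 FPKM in EpiLC and 276 FPKM in Sirt1KO Otx2KD ESC, and Amt, of the glycine cleavage system, 33.1 FPKM in EpiLC and 79.1 FPKM in Sirt1KO Otx2KD ESC.

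Of 35 lysosome and autophagy genes tested 29 were lower, 2 were higher (Tfe3 and Gabarapl1) and 4 were not called, with a median of -0.57 where 38.3% of all loci were lower. Besides Calcoco2, Ulk1, the kinase that starts autophagy, read 16.5, 16.8 and 15.7 FPKM in the EpiLC libraries, against 86.3, 86.7 and 82.5 FPKM in the Sirt1KO Otx2KD libraries (log2 fold change -2.31 ± 0.05, adjusted p = 6.29e-14). Gabarapl2, of the Atg8 family, read 8.04, 8.96 and 8.88 FPKM in the EpiLC libraries, against 43.0, 42.9 and 44.0 FPKM in the Sirt1KO Otx2KD libraries (-2.20 ± 0.06, adjusted p = 9.43e-13), and lysosomal beta-galactosidase (merged locus Glb1,Tmppe, so uncertain) averaged 19.6 FPKM in EpiLC and 81.0 FPKM in Sirt1KO Otx2KD ESC. The regulator genes Tfeb and Tfe3 diverged, by -1.81 for Tfeb and 0.97 for Tfe3. EpiLC against wild-type ESC gave 28 lower and 3 higher, beside 38.5% and 36.7% of all loci. Sirt1KO Otx2KD ESC had 15 genes higher and 7 lower than wild-type ESC, beside 27.8% and 26.8% of all loci.

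Among 23 glutathione and metallothionein genes 15 fell and 6 rose, with a median of -0.84, beside 38.3% of all loci lower and 36.8% higher. The metallothioneins Mt1 and Mt2, which bind zinc and copper, lie beside each other on chromosome 8. Mt1 read 339, 353 and 323 FPKM in the EpiLC libraries, against 1543, 1615 and 1566 FPKM in the Sirt1KO Otx2KD libraries (log2 fold change -2.22 ± 0.04, adjusted p = 8.38e-15), and Mt2 read 447, 492 and 457 FPKM in the EpiLC libraries, against 2474, 2539 and 2453 FPKM in the Sirt1KO Otx2KD libraries (-2.42 ± 0.05, adjusted p = 4.92e-13). Their neighbour Mt4 was listed at 0 in every EpiLC library and at 26.4, 30.8 and 36.0 FPKM in Sirt1KO Otx2KD ESC. Mt4 thus passed the filter through Sirt1KO Otx2KD ESC alone, which fixed its direction. Gsto1, an omega class glutathione transferase, read 49.0, 46.2 and 52.9 FPKM in the EpiLC libraries, against 256, 278 and 266 FPKM in the Sirt1KO Otx2KD libraries (-2.41 ± 0.05, adjusted p = 5.26e-14). Its high level was that of the Sirt1KO Otx2KD ESC, which exceeded wild-type ESC (67.9 FPKM) by 1.96 log2 units (adjusted p = 8.45e-12), while Mt1 and Mt2 were not called there. Both subunits of glutamate-cysteine ligase rose, Gclc by 1.17 and Gclm by 0.93, and glutathione synthetase, Gss, fell (log2 fold change -2.48).

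Of other creatine genes, the transporter Slc6a8 (-1.09) and the synthesis enzyme Gamt (-1.56) were lower, and Gatm, the other synthesis enzyme, was higher (0.80).

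Most collagen and matrix genes were lower in EpiLC, and here the ESC groups differed widely. Of 18 fibroblast and feeder genes tested 15 were lower and 3 higher (Col6a3, Bgn and Thy1), with a median of -1.34, where 38.3% of all loci were lower. Col3a1, a fibrillar collagen, read 15.4, 15.2 and 15.9 FPKM in the EpiLC libraries, against 74.4, 75.4 and 75.9 FPKM in the Sirt1KO Otx2KD libraries (log2 fold change -2.21 ± 0.05, adjusted p = 2.52e-13). Postn, the matrix protein periostin, read 4.77, 3.95 and 5.67 FPKM in the EpiLC libraries, against 27.5, 30.4 and 30.4 FPKM in the Sirt1KO Otx2KD libraries (-2.40 ± 0.09, adjusted p = 1.83e-11), and Col1a2 read 10.6, 10.7 and 10.3 FPKM in the EpiLC libraries, against 48.03, 45.5 and 47.95 FPKM in the Sirt1KO Otx2KD libraries (-2.06 ± 0.08, adjusted p = 1.36e-11). For Col3a1 the mean was 2.10 FPKM in Sirt1KO ESC, lowest of the 4 groups, and 36.3 FPKM in wild-type ESC, which stood between EpiLC and Sirt1KO Otx2KD ESC. Fibroblasts, which serve as feeder cells, express these genes strongly. The sum over 8 markers (Col1a1, Col1a2, Col3a1, Thy1, Pdgfrb, Postn, Dcn and Lum) was 60.6 to 62.4 FPKM in EpiLC, 235 to 237 in Sirt1KO Otx2KD ESC, 10.9 to 14.5 in Sirt1KO ESC and 105 to 126 in wild-type ESC. Of the 8, 1 (Pdgfrb) was under 1 FPKM in all EpiLC libraries and none was in Sirt1KO Otx2KD ESC. The part of such cells in these results was not tested, and in bulk RNA fewer cells of a type and less RNA per cell cannot be told apart.

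Sparc, a matrix glycoprotein made by many cells, averaged 95.3 FPKM in EpiLC and 429 FPKM in Sirt1KO Otx2KD ESC, and the basement membrane linker Nid1 13.7 FPKM in EpiLC and 65.8 FPKM in Sirt1KO Otx2KD ESC. Laminin subunits diverged, with Lama1 at -2.07 and Lamb2 at -1.40 but Lamb1 at 0.52 log2 units. In all, 7 of 20 basement membrane and integrin genes were higher and 10 lower, beside 36.8% and 38.3% of all loci. Itga6, a laminin receptor subunit, averaged 50.6 FPKM in EpiLC and 26.6 FPKM in Sirt1KO Otx2KD ESC. Whether these genes moved with the fibroblast markers given above was not tested. In EpiLC against wild-type ESC the basement membrane and integrin list had a median of 0.31, with 10 higher and 8 lower. The fibroblast and feeder list had -0.69 there, with 3 higher and 12 lower. Of all loci, 36.7% were higher and 38.5% lower in that comparison.

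Epithelial genes split, with 10 of 21 higher and 6 lower, beside 36.8% and 38.3% of all loci. Esrp1, a splicing regulator of epithelial cells, read 35.1, 35.0 and 34.2 FPKM in the EpiLC libraries, against 3.62, 3.17 and 3.08 FPKM in the Sirt1KO Otx2KD libraries (log2 fold change 3.06 ± 0.12, adjusted p = 2.37e-11), and Epcam, an adhesion molecule, read 164, 156 and 166 FPKM in the EpiLC libraries, against 31.5, 33.9 and 33.4 FPKM in the Sirt1KO Otx2KD libraries (2.26 ± 0.07, adjusted p = 5.47e-12). Esrp2, a relative of Esrp1, fell (-1.34), and the claudin Cldn4 (-1.59) and desmoplakin, Dsp (-2.32), fell as well. Cdh1, E-cadherin, had a log2 fold change of -0.12 ± 0.03 (adjusted p = 0.004). Of 16 mesenchymal genes 6 were higher and 6 lower, with averages for vimentin, Vim, of 136 FPKM in EpiLC and 68.6 FPKM in Sirt1KO Otx2KD ESC and for fibronectin, Fn1, of 128 FPKM in EpiLC and 218 FPKM in Sirt1KO Otx2KD ESC.

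Gja1, the gap junction protein connexin 43, read 253, 256 and 262 FPKM in the EpiLC libraries, against 19.13, 23.1 and 21.2 FPKM in the Sirt1KO Otx2KD libraries (log2 fold change 3.55 ± 0.13, adjusted p = 5.5e-10). Every EpiLC library lay far above every Sirt1KO Otx2KD library.

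Of 25 p53 target genes 17 fell and 6 rose, with a median of -0.41, where 38.3% of all loci fell and 36.8% rose. Cdkn1a, the cell cycle inhibitor p21, read 60.2, 59.1 and 58.4 FPKM in the EpiLC libraries, against 189, 186 and 194 FPKM in the Sirt1KO Otx2KD libraries (log2 fold change -1.66 ± 0.04, adjusted p = 3.56e-13), and Gadd45b averaged 6.69 FPKM in EpiLC and 41.9 FPKM in Sirt1KO Otx2KD ESC. Pmaip1, the cell death gene Noxa, rose, reading 108, 109 and 112 FPKM in the EpiLC libraries, against 22.8, 26.7 and 21.2 FPKM in the Sirt1KO Otx2KD libraries (2.17 ± 0.10, adjusted p = 3.73e-10). Trp53 itself fell, with a log2 fold change of -0.41. In Sirt1KO Otx2KD ESC against wild-type ESC 11 of these genes were higher and 6 lower, beside 27.8% and 26.8% of all loci there. Cdkn2a, the locus of p16 and p19, averaged 11.4 FPKM in EpiLC and 58.3 FPKM in Sirt1KO Otx2KD ESC, and cyclin D3, Ccnd3, 42.9 FPKM in EpiLC and 121 FPKM in Sirt1KO Otx2KD ESC. Of the D cyclins, Ccnd1 was thus higher and Ccnd3 lower in EpiLC. Over 23 G1 cyclin and Myc genes 12 were higher, among them Myc by 1.93, and 8 were lower.

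Imprinted genes, expressed from the copy of a single parent, were higher in 14 of 21 tested and lower in 6, with a median of 0.87, where 36.8% of all loci were higher and 38.3% lower. Grb10, an adaptor that restrains growth, read 66.9, 66.5 and 67.2 FPKM in the EpiLC libraries, against 14.2, 13.8 and 12.9 FPKM in the Sirt1KO Otx2KD libraries (log2 fold change 2.21 ± 0.08, adjusted p = 2.08e-11), and Peg10, of retroviral origin, averaged 17.6 FPKM in EpiLC and 4.62 FPKM in Sirt1KO Otx2KD ESC. Plagl1, a zinc finger gene, fell, averaging 0.375 FPKM in EpiLC and 6.32 FPKM in Sirt1KO Otx2KD ESC. Nnat, neuronatin, averaged 22.0 FPKM in EpiLC and 2.30 FPKM in Sirt1KO Otx2KD ESC, with 12.3 FPKM in Sirt1KO ESC. Against wild-type ESC the list gave 10 higher and 9 lower in EpiLC, with a median of -0.10, beside 36.7% and 38.5% of all loci. The Rian locus (merged name) is an example: it averaged 10.6 FPKM in EpiLC and 2.69 FPKM in Sirt1KO Otx2KD ESC, with 0.221 FPKM in Sirt1KO ESC and 19.7 FPKM in wild-type ESC, so its direction in EpiLC depends on the ESC it is set against.

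Sirtuin and NAD genes were mixed, 8 of 16 higher and 5 lower, beside 36.8% and 38.3% of all loci. Sirt1 was among those higher, while Sirt6 fell, averaging 12.3 FPKM in EpiLC and 23.1 FPKM in Sirt1KO Otx2KD ESC. Naprt1 and Nampt, which feed separate branches of NAD supply, averaged 11.8 FPKM in EpiLC and 3.07 FPKM in Sirt1KO Otx2KD ESC for Naprt1 and 79.8 FPKM in EpiLC and 52.4 FPKM in Sirt1KO Otx2KD ESC for Nampt.

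By chromosome, the median log2 fold change of EpiLC against Sirt1KO Otx2KD ESC was 0.01 for the 668 loci of chromosome 8 and -0.06 for the 1003 loci of chromosome 11. Against wild-type ESC the same loci had medians of 0.41 and -0.45. Sirt1KO Otx2KD ESC against wild-type ESC had 0.36 and -0.39. So EpiLC and Sirt1KO Otx2KD ESC stood on the same side of wild-type ESC for both chromosomes. Loci of a chromosome are not replicates, and copy number was not measured. On chromosome 8 the calls were 269 higher and 245 lower against Sirt1KO Otx2KD ESC, where 446 were higher and 115 lower against wild-type ESC. On chromosome 11 they were 336 higher and 426 lower, where 140 were higher and 681 lower against wild-type ESC.

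**Figure D4:**
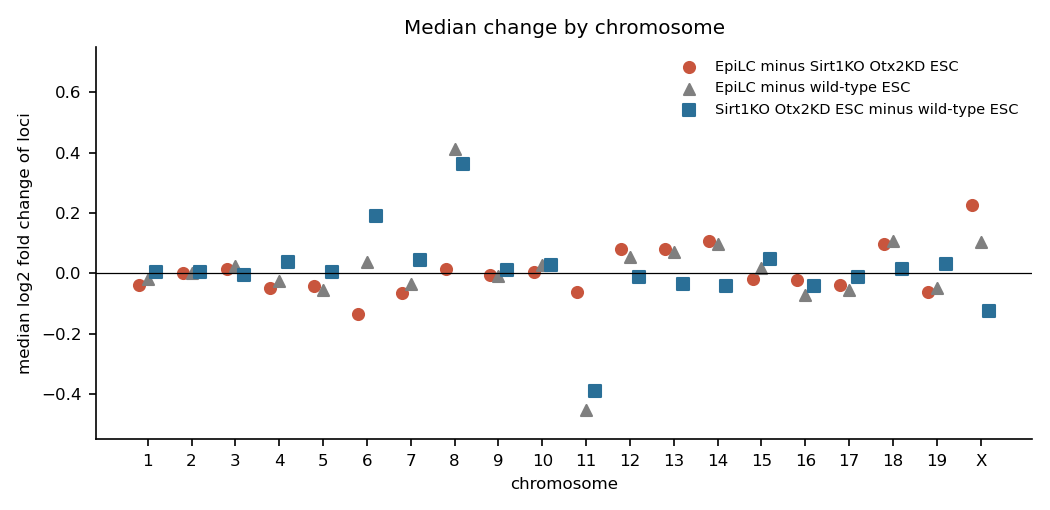
Median log2 fold change of the loci tested on each chromosome for EpiLC against Sirt1KO Otx2KD ESC (circles), EpiLC against wild-type ESC (triangles) and Sirt1KO Otx2KD ESC against wild-type ESC (squares). On chromosomes 8 and 11 the circles lie near 0 (0.01 and -0.06) while triangles and squares lie well above 0 on 8 and below 0 on 11; chromosome 6 (-0.14) and X (0.23) are where circles lie farthest from 0. Chromosome Y, with 3 loci, is not drawn.

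The contrast was chosen for similar levels of chromosomes 8 and 11, so their medians near 0 are no result. Their genes can be read here with little shift of the chromosome median, though on chromosome 11 more loci were lower (426) than higher (336). On chromosome 8 the largest rises were those of Chd9, a chromatin remodeller, which read 43.7, 44.8 and 45.4 FPKM in the EpiLC libraries, against 3.59, 3.88 and 3.404 FPKM in the Sirt1KO Otx2KD libraries (log2 fold change 3.30 ± 0.10, adjusted p = 9.13e-13), and Dusp4, a nuclear ERK phosphatase (3.11 ± 0.20). Efnb2, the ligand ephrin-B2, rose by 2.62, Tmem59l by 2.19 and Xkr5 by 2.05. The falls on chromosome 8 were led by Mt4, followed by Nqo1, a quinone reductase, at 23.0 FPKM in EpiLC and 129 FPKM in Sirt1KO Otx2KD ESC. Next in order were Mt2 (-2.42), Il34, a ligand of the Csf1 receptor, at 0.321 FPKM in EpiLC and 5.55 FPKM in Sirt1KO Otx2KD ESC, and Mt1 (-2.22). Mt4 and Il34 passed the filter through Sirt1KO Otx2KD ESC alone, which fixed their direction. For Chd9 the difference from wild-type ESC was 3.42, close to its 3.30 here.

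On chromosome 11 Etv4 and Slc16a3 led the rises, followed by Car4, a carbonic anhydrase, at 28.5 FPKM in EpiLC and 2.997 FPKM in Sirt1KO Otx2KD ESC. Bcl11a, a zinc finger repressor, averaged 5.10 FPKM in EpiLC and 0.0167 FPKM in Sirt1KO Otx2KD ESC, and Msi2, an RNA-binding protein gene, 37.9 FPKM in EpiLC and 5.82 FPKM in Sirt1KO Otx2KD ESC. Bcl11a passed the filter through EpiLC alone, which fixed its direction. Calcoco2 and Aspa led the falls, followed by the keratin Krt42 (-3.25), oncostatin M, Osm (-3.10), a cytokine of the LIF family, and Pdlim4 (-2.93). Suz12, a core subunit of Polycomb repressive complex 2 on this chromosome, averaged 80.4 FPKM in EpiLC and 116 FPKM in Sirt1KO Otx2KD ESC, with 189 FPKM in wild-type ESC. The log2 fold change was -0.53 here and -1.22 against wild-type ESC. Over the complex 3 of 11 genes were higher (Ezh1, Rbbp7 and Jarid2) and 7 lower, beside 36.8% and 38.3% of all loci.

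Chromosome 6 had a median of -0.14 (171 of 564 loci higher, 262 lower), beside 0.19 for Sirt1KO Otx2KD ESC against wild-type ESC. The X chromosome had a median of 0.23, with 215 of 409 loci higher and 102 lower. The 3 loci of chromosome Y that were tested passed the filter through EpiLC alone, so that their direction and lack of overlap follow from it and their levels are a description. Eif2s3y, a translation factor gene, read 3.70, 4.45 and 5.41 FPKM in the EpiLC libraries, against 0.769, 0.247 and 0.235 FPKM in the Sirt1KO Otx2KD libraries, with 0.181, 0.0529 and 0.0545 FPKM in Sirt1KO ESC and 30.6, 27.9 and 28.3 FPKM in wild-type ESC. Ddx3y averaged 2.81 FPKM in EpiLC and 0.267 FPKM in Sirt1KO Otx2KD ESC, with 14.4 FPKM in wild-type ESC, and Uty 1.27 FPKM in EpiLC and 0.0563 FPKM in Sirt1KO Otx2KD ESC, with 4.99 FPKM in wild-type ESC. In EpiLC the means of all 3 were below those of wild-type ESC.

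**Figure D5:**
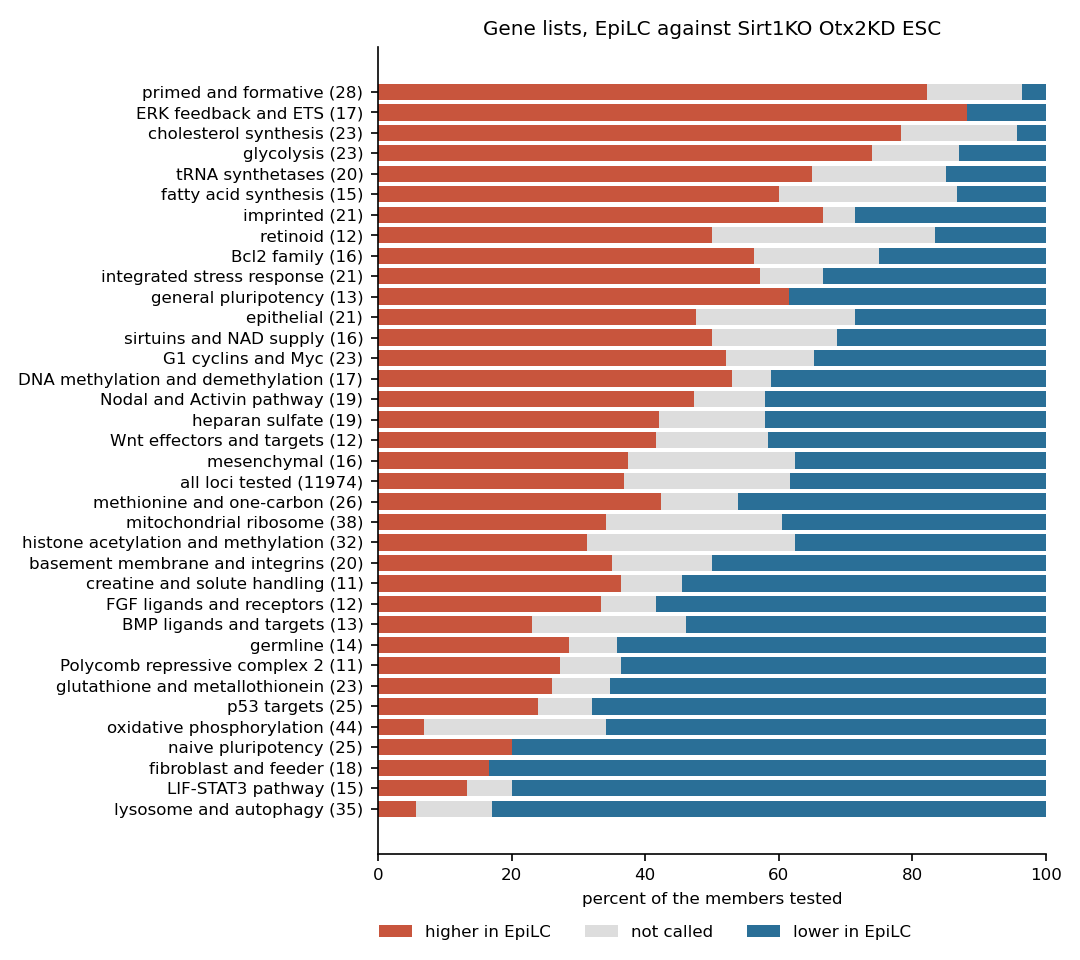
Percent of the tested members of each gene list that were called higher in EpiLC (red), not called (grey) and called lower in EpiLC (blue), with the number tested in brackets, for lists with at least 10 members tested and for all 11974 loci. The primed and formative, ERK feedback, cholesterol and glycolysis lists sit at the top with more members higher than the 36.8% of all loci, and the lysosome, LIF-STAT3, fibroblast and naive lists sit at the bottom with more members lower than the 38.3% of all loci.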

How the data were processed

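Per the labels' protocols, the 12 mouse libraries were TruSeq libraries of oligo-dT selected RNA. TopHat, Cufflinks, Cuffdiff and mm9 are named in the submitters' processing notes, without versions. Per locus, the authors deposited FPKM, and the way library size entered them is not given in the sources used here. Each file held 27914 loci. The 4778 unnamed loci hold 95.3% to 96.9% of the FPKM sum and entered an alternative only.

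Groups follow the sample titles. With limma 3.58.1 (R 4.3.3), a mean per group was fitted to log2(FPKM + 1) over 12 libraries, leaving 8 residual degrees of freedom. Variances were moderated with the trend and robust options, and p-values were Benjamini-Hochberg adjusted over 11974 loci. Fold changes are EpiLC minus Sirt1KO Otx2KD ESC and, with a pseudocount of 1, understate the change of low genes. SD and n refer to 3 libraries per group. On simulated data with 11974 loci, 56% of altered loci were recovered at 0.25 log2 units and 86% at 0.5. The share was 98% at 1 and at 2 log2 units, and 3.43% of calls were false. Whether these shares hold in the libraries here, where 75.0% of loci were called, was not tested.

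The text names Pou5f1, Otx2 and Sirt1, all naive and primed list members, and up to 4 members of each other list by t. It also names the largest folds, 15 per direction and 5 per direction on chromosomes 8 and 11, among called loci without overlap and with a mean of at least 5 FPKM in the higher group. The largest folds exclude predicted genes, pseudogenes, and merged or duplicated names. Some genes that the rule selects are not reported here. Other list members named were chosen after their values were seen. The members and the 41 lists, written from general knowledge, were chosen with earlier results of these data known. Of the loci tested, 190 carry merged names and 136 share a symbol.

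Replicate numbers do not pair the libraries. Alternatives changed the pseudocount, filter, scaling, model and libraries used. Promoter sequences are RefSeq's on GRCm38.p6, and none was read by mm9 coordinates.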

Additional observations from a re-analysis of the deposited data

How the results depend on the processing

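Over 17 alternatives, 208 of 213 named genes kept their direction and their side of the threshold wherever they were tested, which under a filter at 5 FPKM was 200 of them. The exceptions were Pou5f1, Cdh2, Etv5, Igfbp2 and Cldn6. Pou5f1 reversed under quantile normalization (0.19). The count of genes higher by at least 1 log2 unit was 571 with a filter at 5 FPKM, which tests 8905 loci, and 1309 with unnamed loci included, which tests 16411. The count lower by at least 1 log2 unit was 1679 with unnamed loci included. These stand against 865 and 1103 in the report. With a library left out, genes called higher ranged from 4201 to 4253 and lower from 4403 to 4451, and those past 1 log2 unit from 858 to 877 higher and from 1094 to 1120 lower.

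Same-numbered replicates did not deviate together, with correlations of -0.0171, -0.0849 and -0.00107. With the replicate block, 4363 genes were called higher and 4554 lower, 8857 of these calls were shared, and among named genes Pou5f1 alone lost its call. Quantile normalization gave 4844 higher and 4233 lower, and moved the median of all loci to 0.0368 from -0.0097. The balance of higher and lower members turned in some settings for the Wnt, Nodal, primitive endoderm, mesendoderm, mitochondrial ribosome, heparan sulfate, methionine, histone and mesenchymal lists. Fragment counts are not given, so no counting error stands beside low FPKM.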

Other observations

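Lineage and germline genes were counted too, where 75.0% of all loci were called, 36.8% higher and 38.3% lower. Counts here cover tested members, some of which passed the filter on low values only through the group where they were high. Of 14 germline genes tested 9 were lower and 4 higher in EpiLC (Sycp3, Mael, Piwil2 and Ddx4). Rhox6 and Rhox9, homeobox genes of a cluster on the X chromosome, averaged 0.885 FPKM in EpiLC and 21.0 FPKM in Sirt1KO Otx2KD ESC for Rhox6 and 1.13 FPKM in EpiLC and 20.1 FPKM in Sirt1KO Otx2KD ESC for Rhox9. In Sirt1KO ESC they averaged 5.21 and 2.63 FPKM, and in wild-type ESC 20.6 and 19.7 FPKM. Tfap2c, a factor of trophoblast and germ cells, averaged 5.88 FPKM in EpiLC and 55.2 FPKM in Sirt1KO Otx2KD ESC, and Gata2 0.115 FPKM in EpiLC and 8.001 FPKM in Sirt1KO Otx2KD ESC, 2 of 4 trophoblast list genes that were lower among 7 tested. Gsc, a homeobox gene of the primitive streak, read 0.284, 0.0763 and 0.229 FPKM in the EpiLC libraries, against 11, 12.6 and 11.99 FPKM in the Sirt1KO Otx2KD libraries (log2 fold change -3.43 ± 0.09, adjusted p = 2.99e-13), and Eomes rose by 0.42. Of 6 neuroectoderm genes Sox1 and Pax6 were higher and Neurog1, Tubb3, Nes and Foxd3 lower. Neurog1, a proneural factor, averaged 0.186 FPKM in EpiLC and 6.96 FPKM in Sirt1KO Otx2KD ESC, with 33.1 FPKM in wild-type ESC. Of 6 primitive endoderm genes 3 were higher (Cubn, Dab2 and Col4a1), 2 lower (Sparc and Lama1) and Gata4 was not called. Of 11 2-cell-like genes 3 were tested, and Pramel6 and Pramel7 passed the filter through Sirt1KO Otx2KD ESC alone, which fixed their direction. Pramel7 was listed at 0 in all EpiLC libraries and at 6.76, 6.07 and 5.87 FPKM in Sirt1KO Otx2KD ESC, and Pramel6 read 0, 0.111 and 0 FPKM in the EpiLC libraries, against 14.2, 13.3 and 15.2 FPKM in the Sirt1KO Otx2KD libraries, with 3.52 FPKM in wild-type ESC.

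Kdm3a, a histone H3 lysine 9 demethylase, read 15.2, 14.97 and 15.5 FPKM in the EpiLC libraries, against 67.5, 68.1 and 68.7 FPKM in the Sirt1KO Otx2KD libraries (log2 fold change -2.09 ± 0.04, adjusted p = 5.25e-14), and Ehmt1, a methyltransferase for the same residue, averaged 31.3 FPKM in EpiLC and 13.8 FPKM in Sirt1KO Otx2KD ESC. Over 32 histone acetylation and methylation genes 10 were higher and 12 lower, and of 19 heparan sulfate genes 8 were higher and 8 lower, beside 36.8% and 38.3% of all loci. Sulf1 was higher, averaging 13.4 FPKM in EpiLC and 4.11 FPKM in Sirt1KO Otx2KD ESC, while Hs6st1, which adds the sulfates that Sulf enzymes remove, averaged 24.9 FPKM in EpiLC and 84.9 FPKM in Sirt1KO Otx2KD ESC, and its relative Hs6st2 rose by 2.05. Of 12 retinoid genes 6 were higher and 2 lower (Dhrs3 and Rdh10). Rarg, the gamma retinoic acid receptor, averaged 92.2 FPKM in EpiLC and 28.3 FPKM in Sirt1KO Otx2KD ESC, and Rxrg 4.09 FPKM in EpiLC and 0.0329 FPKM in Sirt1KO Otx2KD ESC. Of 16 Bcl2 family genes 9 were higher and 4 lower (Bad, Bik, Bax and Bcl2l1), with Mcl1, which protects from apoptosis, at 216 FPKM in EpiLC and 135 FPKM in Sirt1KO Otx2KD ESC. Of 13 general pluripotency genes 8 were higher and 5 lower, with Sox2 at -0.50 and Zfp281 at 0.99 log2 units.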
